A study of Mus musculus with 15 samples.

Results

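The liver genes Cyp2b9, Cyp2b10 and Cyp2b13, which encode cytochrome P450 enzymes of drug and steroid metabolism, and Nr1i3, which encodes their nuclear receptor CAR (the constitutive androstane receptor), were followed by gene symbol across 15 mouse livers. These 4 members were all listed among the 20325 genes of each library. Cyp2b9, Cyp2b10 and Nr1i3 were among the 12377 genes that passed a filter on low counts, and Cyp2b13 was not. The livers came from male C57BL/6J mice aged 19 weeks, in 5 groups of 3 mice. Conventionally raised (ConvR) mice on HF/HS, a diet high in fat and sucrose, had carried microbes from birth, and germ-free (GF) mice on HF/HS had carried none. Conventionalized (ConvD) mice on chow were born germ-free and received, at 15 weeks of age, a single oral gavage of fresh cecal contents from ConvR donors on chow, 4 weeks before collection. ConvR mice on chow and GF mice on chow completed the design. HF/HS held 44.6% of its energy as fat, 40.6% as carbohydrate and 14.8% as protein. Chow held 23.7% as fat, 53.2% as carbohydrate and 23.1% as protein. Mice ate either diet after 3 weeks of age. Mice shared cages by colonization status and diet, so that cage and group cannot be told apart.

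CAR is kept in the cytoplasm of hepatocytes in a complex with HSP90 and the cochaperone Dnajc7, and moves to the nucleus when an activator binds it or when signalling of the epidermal growth factor receptor is lowered. There it pairs with the retinoid X receptor RXR and binds enhancers of genes for the uptake, oxidation, conjugation and export of drugs and bile pigments. Cyp2b10 is the best known of these targets in mouse liver and is used as the marker of CAR activity. Cyp2b9 and Cyp2b13 are known as female-biased genes of the adult mouse liver, held low in males by the male pattern of growth hormone, while Cyp2b10 answers drugs in both sexes.

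The 250 bases before the start of each Cyp2b gene are shown because those of Cyp2b9 and Cyp2b13 are nearly the same and that of Cyp2b10 is not. They were taken from RefSeq on GRCm38.p6, plus strand, at chr7:26173159-26173408 for Cyp2b9, chr7:26061245-26061494 for Cyp2b13 and chr7:25897408-25897657 for Cyp2b10. Capitals mark the bases that differ between Cyp2b9 and Cyp2b13, and in Cyp2b10 the match to the motif TTGCNNAA.
Cyp2b9: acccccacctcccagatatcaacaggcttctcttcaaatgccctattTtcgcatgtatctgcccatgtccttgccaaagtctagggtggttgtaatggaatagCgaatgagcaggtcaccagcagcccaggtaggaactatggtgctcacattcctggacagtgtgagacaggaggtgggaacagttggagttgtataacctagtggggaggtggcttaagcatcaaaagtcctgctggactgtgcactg
Cyp2b13: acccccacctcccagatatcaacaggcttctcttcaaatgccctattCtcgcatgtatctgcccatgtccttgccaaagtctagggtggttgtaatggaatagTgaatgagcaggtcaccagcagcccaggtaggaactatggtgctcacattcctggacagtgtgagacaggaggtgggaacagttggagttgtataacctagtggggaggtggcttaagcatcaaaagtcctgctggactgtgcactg
Cyp2b10: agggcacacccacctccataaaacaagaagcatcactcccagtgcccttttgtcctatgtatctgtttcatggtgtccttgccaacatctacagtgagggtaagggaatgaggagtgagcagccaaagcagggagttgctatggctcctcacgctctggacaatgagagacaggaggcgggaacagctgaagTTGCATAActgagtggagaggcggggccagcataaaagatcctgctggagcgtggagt
The Cyp2b9 and Cyp2b13 promoters were identical at 248 of 250 bases. Both differences were substitutions, T203C and C147T, with the Cyp2b9 base first and positions counted as bases before the start. The Cyp2b10 promoter shared 70.0% of aligned positions with either of them. Matches to 4 motifs were searched on both strands. TTGCNNAA, the letters of C/EBP sites, began 180 bases before the start in Cyp2b9 and Cyp2b13 and 58 bases before it in Cyp2b10, and occurred in 9.6% of 32851 RefSeq mouse promoters of this length. AGGTCA, a nuclear receptor half-site, began 138 bases before the start of Cyp2b9 and Cyp2b13 without overlap with the first motif, was not among these letters in Cyp2b10, and occurred in 14.0% of promoters. TTCNNNGAA, a STAT motif, and TATAAA had no match in the 3 windows, against 7.0% and 12.4% of promoters. Over the whole transcript Cyp2b9 and Cyp2b13 were less alike than in the promoter, at 89.3% identity, and 10.8% of the 50-base stretches of Cyp2b9 also occurred in Cyp2b13. Cyp2b9 and Cyp2b10 were more alike over the transcript, at 84.4% identity, than in the promoter, and shared 0.5% of such stretches. Because RSEM divides shared reads among genes, the split between Cyp2b9 and Cyp2b13 is the least certain one, and the sum of the 3 genes does not depend on it.

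The libraries held 14737578 to 21794811 expected counts. Levels are CPM, counts scaled to a common library total after correction by the trimmed mean of M values, and fold changes are log2 values ± standard error from edgeR's quasi-likelihood F test on all 15 livers, with a call where the p adjusted by Benjamini-Hochberg over all genes tested was below 0.05. Summed hepatocyte markers reached 49700 to 123000 CPM in every liver. The highest sum of any other cell type was 437 CPM, for Kupffer cells. Some libraries stood apart. Saa2, an acute phase gene, was at 9887, 12790 and 695 CPM in the ConvR chow livers and at 4.27 to 53.8 CPM in the other 12. Of 14 acute phase genes, 14 were called lower in ConvR HF/HS than in ConvR chow livers, where 7.8% of all genes were. In ConvD chow, 11 were called lower than in ConvR chow livers, where 3.3% of all genes were. Fos, an immediate early gene, was at 129, 28.9 and 5.95 CPM in the GF chow livers and at most at 2.91 CPM elsewhere. Of 10 immediate early genes, 8 were called lower in GF HF/HS than in GF chow livers, where 5.45% of all genes were. Spearman's rho between a library's relative expression and gene length was −0.451 to 0.058 over the 6 livers of GF and ConvR mice on chow, and 0.104 to 0.38 over the other 9. The part of these differences in the results was not tested beyond the recomputed values given with them.

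The makeup of the family differed by diet. Cyp2b9 was higher and Cyp2b10 lower in livers on HF/HS than in livers on chow, in ConvR and in GF mice, while Nr1i3 was not called in either comparison. Cyp2b9 made up 93.8% to 99.8% of the summed Cyp2b counts in the 6 livers on HF/HS, against 0% to 38.4% in the 9 livers on chow. Cyp2b10 made up 0.196% to 6.25% on HF/HS, against 61.6% to 100% on chow. The 3 genes were 1872 to 1877 bases long in the deposited files, so that shares of counts are close to shares of transcripts.

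**Figure D1:**
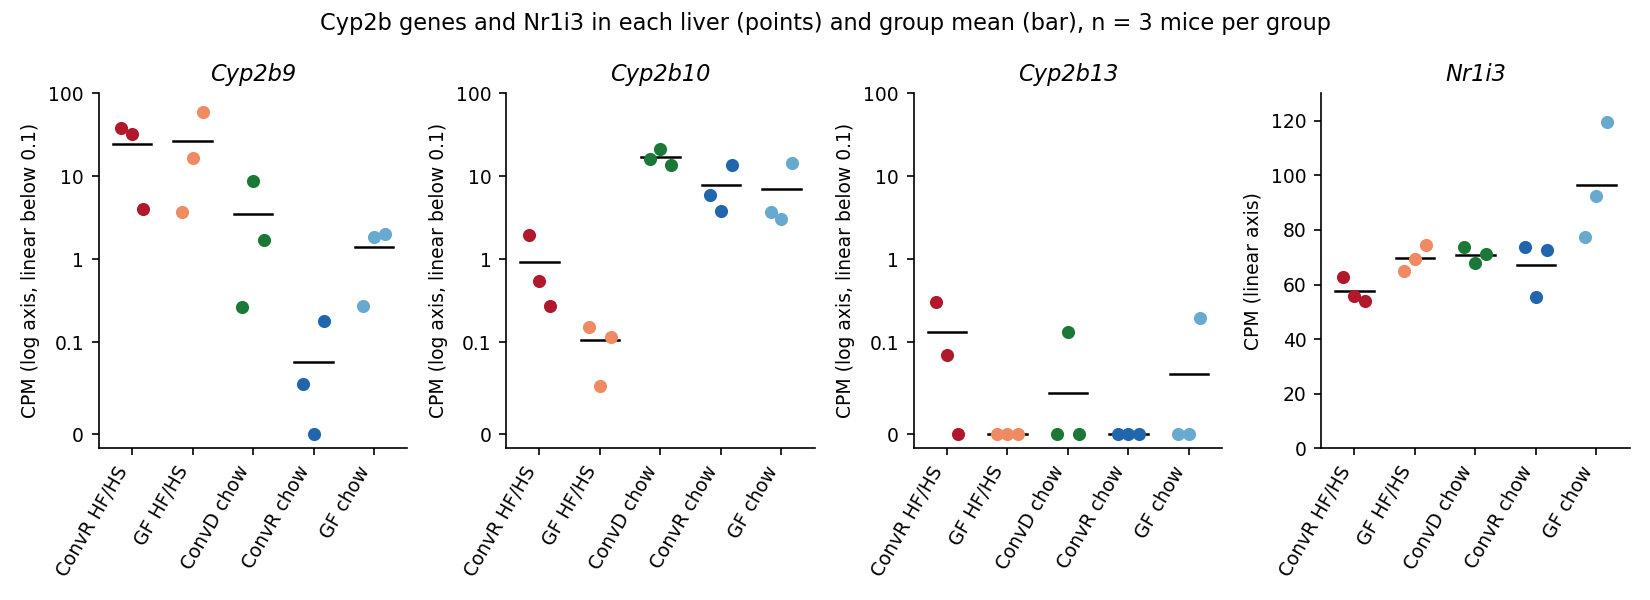
CPM of the 3 Cyp2b genes (log axis, linear below 0.1) and of Nr1i3 (linear axis) in each liver by group, with the group mean as a bar (n = 3 mice each). Every liver on HF/HS lies below every liver on chow for Cyp2b10, at 0.0526 to 1.99 CPM against 3.03 to 21.4 CPM, while Nr1i3 lies between 54.1 and 119.5 CPM throughout.

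Cyp2b9 had 38.0, 32.7 and 4.09 CPM in the ConvR HF/HS livers, against 0.0550, 0 and 0.181 CPM in the ConvR chow livers. These were 879, 660.3 and 90 expected counts on HF/HS, against 1, 0 and 3 on chow. All 3 livers on HF/HS were above all 3 on chow, and the lowest of them stood well below the other two. Cyp2b9 was called (log2 fold change 8.20 ± 1.78, adjusted p = 0.00776), at the top of the upward order of 12377 genes. From summed counts of 1629 against 4, the scaled ratio was 320-fold with a 95% counting interval of 125 to 1180, which covers counting error only. The log2 fold change was 9.46 without ConvR chow 3. Without ConvR chow 1 and 2, the livers with the most Saa2, the call was lost at 7.05 (adjusted p = 0.189, the highest of a range from 9.18e-07 over the alternatives), with the lone ConvR chow liver assumed to vary like the other groups.

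In GF mice Cyp2b9 had 3.75, 16.75 and 59.3 CPM on HF/HS, against 0.275, 1.89 and 2.03 CPM on chow. Expected counts were 74, 319 and 1018 on HF/HS, against 4, 33 and 42 on chow. The groups did not overlap, although GF HF/HS 1 stood close above the highest liver on chow. Cyp2b9 was called here too (4.17 ± 1.15, adjusted p = 0.0364), the fourth largest increase of 12377 genes. This call was near the threshold. It ended without any one of GF chow 1, 2 and 3 and GF HF/HS 2 and 3 (adjusted p = 0.067 to 0.168, 2.81 without GF HF/HS 3) and on log2(TPM + 1) (2.88, adjusted p = 0.0779), in a range of adjusted p from 0.0142 to 0.168 over all alternatives.

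Cyp2b10, the CAR target, moved the other way. It had 1.99, 0.546 and 0.273 CPM in the ConvR HF/HS livers, against 5.94, 3.80 and 13.8 CPM in the ConvR chow livers. No liver on HF/HS reached the lowest on chow. Cyp2b10 was called lower (−3.03 ± 0.70, adjusted p = 0.0109), the 29th largest decrease. The log2 fold change was −4.25 without ConvR HF/HS 1 and −2.35 without ConvR chow 3, and the call was lost without ConvR HF/HS 2 (−2.77, adjusted p = 0.0511, the highest of a range from 0.00216).

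Cyp2b10 was also lower on HF/HS in GF mice. Its expected counts were 3, 1 and 2 in the GF HF/HS livers, against 54, 53 and 297 in the GF chow livers. In CPM these were 0.152, 0.0526 and 0.116 on HF/HS, against 3.72, 3.03 and 14.4 on chow. The gene was close to the limit of detection in all 3 GF HF/HS livers, since 3 counts made 0.13 to 0.206 CPM in these libraries. It was called lower (−5.98 ± 1.03, adjusted p = 0.00545), the second largest decrease of 12377 genes. Summed counts of 6 against 404 gave a scaled level 71.5-fold lower with a 95% counting interval of 32.6 to 196. Without GF chow 3 the log2 fold change was −4.89.

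In these diet comparisons, 2 of the 3 tested members were called in ConvR mice, where 14.6% of all genes were called, and 2 of 3 in GF mice, where 9.55% were. Ranges did not overlap for 2 members in ConvR mice, against 32.3% of all genes, and for 3 in GF mice, against 31.5%. Whether the diet effect itself differed between ConvR and GF mice was tested as an interaction, (ConvR HF/HS minus GF HF/HS) minus (ConvR chow minus GF chow). No member was called, at 4.04 ± 2.82 for Cyp2b9 (adjusted p = 0.578), 2.95 ± 1.49 for Cyp2b10 (adjusted p = 0.429) and 0.25 ± 0.20 for Nr1i3 (adjusted p = 0.642). The approximate 95% intervals, −2.24 to 10.31 for Cyp2b9 and −0.37 to 6.26 for Cyp2b10, are wide. edgeR called 0.0% of all genes in the interaction, with 1573 genes at an unadjusted p below 0.05, while DESeq2 called 109 and limma-trend on log2(TPM + 1) called 1192.

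**Figure D2:**
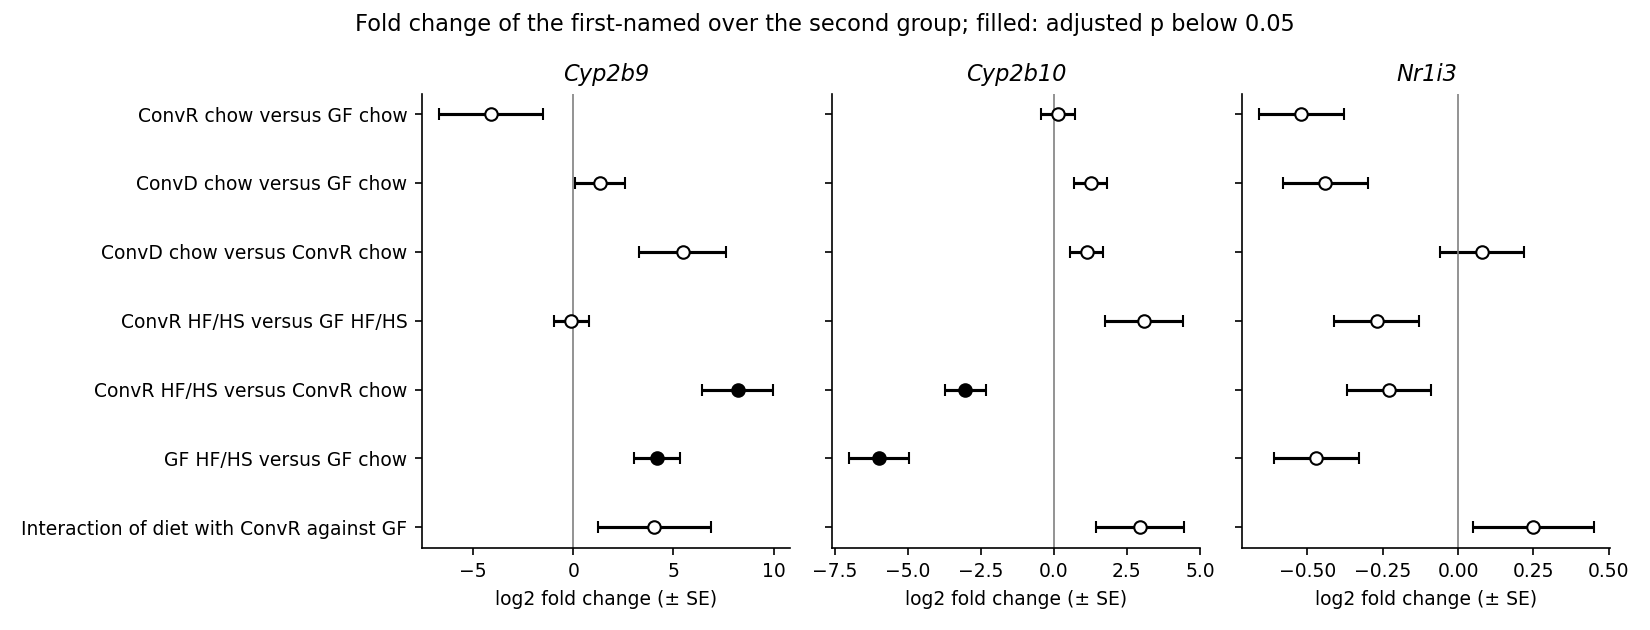
Log2 fold changes ± standard error of Cyp2b9, Cyp2b10 and Nr1i3 for 6 pairs of groups, first-named over second, and for the interaction, with filled points where the adjusted p was below 0.05. The 4 filled points are Cyp2b9 at 8.20 and 4.17 and Cyp2b10 at −3.03 and −5.98, all in the comparisons of HF/HS with chow.

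The sum of the 3 Cyp2b genes, which does not depend on how reads were divided among them, was 25.98 ± 19.04 CPM in ConvR HF/HS and 7.93 ± 5.37 CPM in ConvR chow livers (SD, n = 3 each). In GF mice it was 26.7 ± 29.0 CPM on HF/HS and 8.50 ± 7.02 CPM on chow. The ratios were 3.28 and 3.14, and the ranges overlapped in both, since the lowest liver on HF/HS had 4.37 CPM in ConvR mice and 3.90 CPM in GF mice. The difference in GF mice rested on 1 liver, since its log2 ratio was 1.65 with all livers and 0.28 without GF HF/HS 3, the liver with the most Cyp2b9. In ConvR mice the log2 ratio was 1.71 and ran from 1.25 to 2.41 with 1 liver left out at a time. The livers with the lowest sums on HF/HS were those with the least Cyp2b9. Cyp2b9 varied widely within each group on HF/HS, 9.28-fold between the highest and the lowest ConvR liver and 15.8-fold in GF mice.

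**Figure D3:**
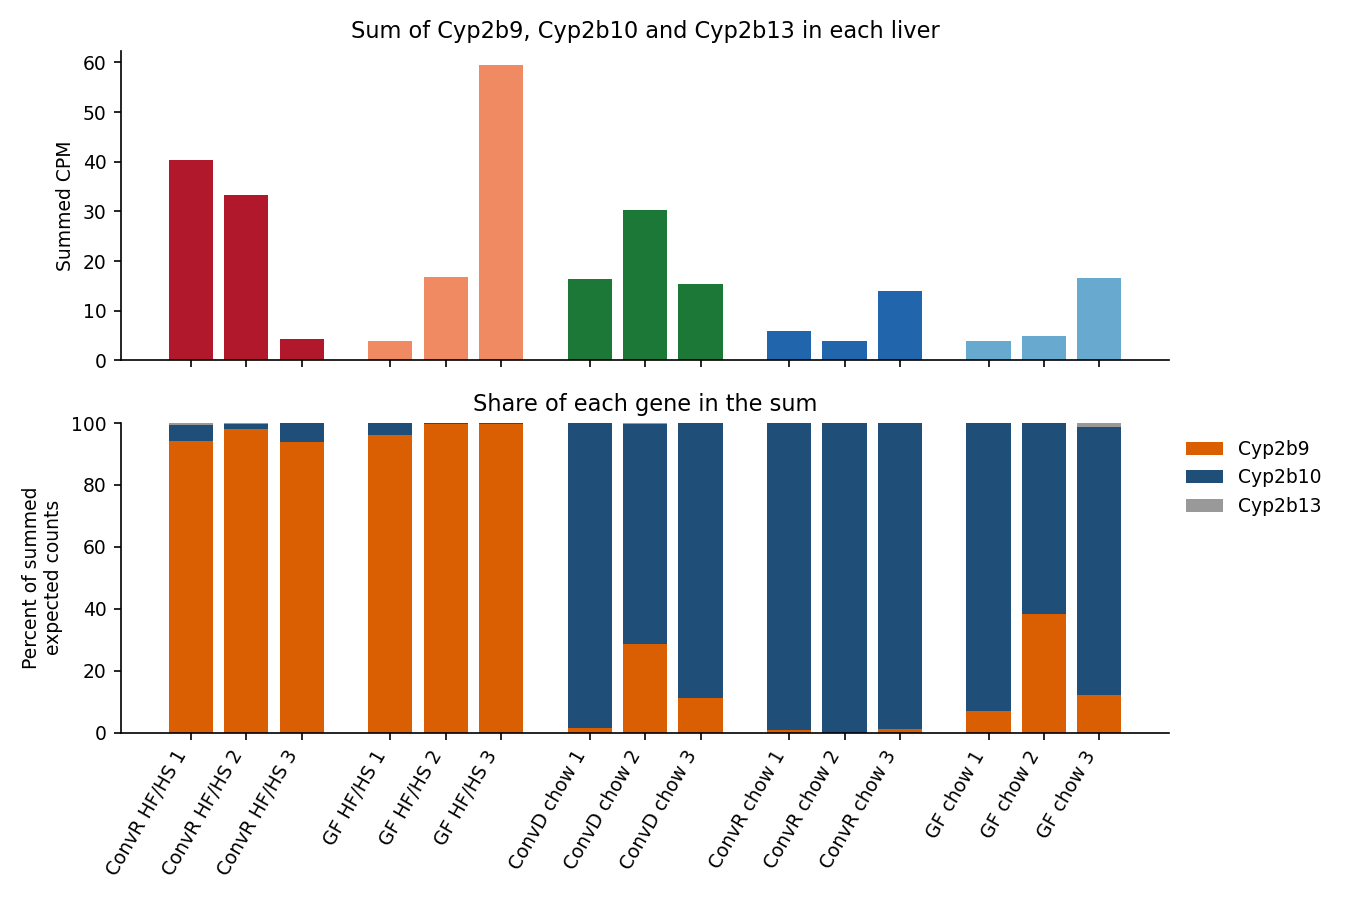
Summed CPM of Cyp2b9, Cyp2b10 and Cyp2b13 (upper bars) and the percentage of the summed expected counts from each gene (lower bars) in each of the 15 livers. The sum runs from 3.80 to 59.4 CPM, and Cyp2b9 takes at least 93.8% of it in every liver on HF/HS and at most 38.4% in any liver on chow.

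Per length, on the deposited TPM scale, the enzymes remained scarce beside their receptor. Nr1i3 averaged 76.4 ± 8.85 TPM in ConvR HF/HS, 79.8 ± 5.08 TPM in GF HF/HS, 86.5 ± 3.08 TPM in ConvD chow, 68.1 ± 13.8 TPM in ConvR chow and 106.5 ± 19.3 TPM in GF chow livers (SD, n = 3 each). Cyp2b9 reached at most 50.2 TPM, in GF HF/HS 3, and Cyp2b10 at most 19.7 TPM, in ConvD chow 2. The highest Cyp2b value was therefore below the lowest Nr1i3 value, 52.1 TPM.

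Nr1i3, the receptor gene, differed far less between livers than Cyp2b9 or Cyp2b10. It had 62.7, 55.8 and 54.1 CPM in the ConvR HF/HS livers, against 73.8, 55.3 and 72.8 CPM in the ConvR chow livers. These groups overlapped, and the difference was not called (−0.23 ± 0.14, adjusted p = 0.311, 95% interval −0.54 to 0.09). On the TPM scale the direction turned, to 0.18 (adjusted p = 0.334 with a pseudocount of 1). In GF livers it had 64.9, 69.2 and 74.6 CPM on HF/HS, against 77.4, 92.5 and 119.5 CPM on chow. The ranges did not overlap, and the difference narrowly missed the threshold (−0.47 ± 0.14, adjusted p = 0.0504), which DESeq2 passed (adjusted p = 0.0225), in a range of adjusted p from 0.0204 to 0.16 over the alternatives. GF chow had the highest mean of the 5 groups, 96.5 ± 21.4 CPM (SD, n = 3), and its 3 livers were above all those of the next group, ConvD chow at 71.0 ± 2.92 CPM. The other neighbours in the order of the groups overlapped.

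Microbial status on chow was compared in 3 ways, and no member was called in any of them. The share of all genes called was 4.72% for ConvR over GF, 5.59% for ConvD over GF and 5.5% for ConvD over ConvR. The comparisons share groups with each other, so their values are given side by side and not as separate support. Beside these values, 11 of 14 acute phase genes were higher and 6 of 10 immediate early genes lower in ConvR than in GF livers on chow, and 8 of 10 immediate early genes were lower in ConvD than in GF livers.

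Cyp2b9 on chow had its lowest mean in ConvR livers. The ConvR chow livers, at 0 to 0.181 CPM, lay below the GF chow livers, at 0.275 to 2.03 CPM, with 4 summed counts against 79. The log2 fold change was −4.12 ± 2.59 and not called (adjusted p = 0.355). ConvD chow livers had 0.269, 8.72 and 1.72 CPM, and ConvD chow 2 alone held 193 of their 229 counts. They lay above the ConvR chow livers (5.45 ± 2.17, adjusted p = 0.146), which put Cyp2b9 at the top of the upward order of 12377 genes without a call, and they overlapped the GF chow livers (1.33 ± 1.25, adjusted p = 0.544). Without ConvD chow 2 the direction of ConvD over GF turned, to −0.57. The DESeq2 Wald test called ConvD over ConvR at 5.52 (adjusted p = 0.00576, the lowest of a range up to 0.7 over the alternatives). The value of 8.72 CPM also lies above ConvR HF/HS 3 and GF HF/HS 1, so Cyp2b9 did not separate the diets without exception.

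Cyp2b10 on chow had its highest mean in ConvD livers, at 16.2, 21.4 and 13.7 CPM. ConvR chow livers had 5.94, 3.80 and 13.8 CPM, and GF chow livers 3.72, 3.03 and 14.4 CPM. In ConvR and in GF mice alike, 1 liver of 3 reached the ConvD range, so that the groups overlapped. Neither ConvD over GF (1.26 ± 0.56, adjusted p = 0.189) nor ConvD over ConvR (1.13 ± 0.56, adjusted p = 0.244) was called, and ConvR over GF was 0.13 ± 0.58 with a 95% interval of −1.16 to 1.42 and turned to −0.56 without ConvR chow 3. On log2(TPM + 1), ConvD over ConvR was called at 1.39 (adjusted p = 0.0372, the lowest of a range up to 0.921). Without GF chow 3, ConvD over GF was 2.35 (adjusted p = 0.0293, the lowest of a range up to 0.391). The summed Cyp2b level was 20.7 ± 8.30 CPM in ConvD chow, 7.93 ± 5.37 CPM in ConvR chow and 8.50 ± 7.02 CPM in GF chow livers (SD, n = 3 each). Each ConvD liver, from 15.4 CPM up, was above each ConvR liver, up to 13.99 CPM, where ranges of 30.1% of all genes did not overlap. ConvD and GF chow livers overlapped in the sum, which reached 16.6 CPM in GF chow.

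Nr1i3 on chow lay closest to the threshold among the members. The log2 fold change was −0.52 ± 0.14 for ConvR over GF (adjusted p = 0.0512) and −0.44 ± 0.14 for ConvD over GF (adjusted p = 0.0767), with no overlap of ranges in either. DESeq2 called both at the same log2 fold changes (adjusted p = 0.0135 and 0.0381), in ranges over the alternatives of 0.0135 to 0.565 for ConvR and 0.0362 to 0.253 for ConvD. ConvD chow livers had 73.7, 67.9 and 71.3 CPM and were not distinguishable from ConvR chow livers (0.08 ± 0.14, 95% interval −0.24 to 0.39, −0.05 without ConvR chow 2). Ranges did not overlap for 2 of the 3 tested members in ConvR over GF, where 19.5% of all genes did not, for 1 in ConvD over GF (28.8% of all genes) and for 1 in ConvD over ConvR (30.1%). In bulk liver, fewer cells of a type and less RNA per cell cannot be told apart.

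On HF/HS, ConvR and GF livers overlapped in Cyp2b9 and did not overlap in Cyp2b10, and no member was called. Cyp2b9 averaged 24.9 ± 18.2 CPM in ConvR and 26.6 ± 29.0 CPM in GF livers (SD, n = 3 each), with a log2 fold change of −0.09 ± 0.88 and a 95% interval of −2.05 to 1.87, and the direction turned without GF HF/HS 3 (1.28). Cyp2b10 was between 0.273 and 1.99 CPM in ConvR livers, against 0.0526 to 0.152 CPM in GF livers, with 63 summed counts against 6. Every ConvR liver was above every GF liver, at a scaled ratio of 8.99 with a 95% counting interval of 3.91 to 25.4, but it was not called (3.08 ± 1.33, adjusted p = 0.284, with 1.62% of all genes called). DESeq2 did call it (3.14, adjusted p = 0.0423, the lowest of a range up to 0.664). Nr1i3 was at 54.1 to 62.7 CPM in ConvR and 64.9 to 74.6 CPM in GF livers without overlap, and was not called (−0.27 ± 0.14, adjusted p = 0.388). Ranges did not overlap for 2 of the 3 members, against 27.4% of all genes.

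Cyp2b13 was near the limit of detection everywhere. It had 7.13, 1.75 and 0 expected counts in the ConvR HF/HS livers and 0 in each GF HF/HS and ConvR chow liver. ConvD chow 2 had 2.95 and GF chow 3 had 4.06, with 0 in the other livers of their groups. In GF HF/HS 3, with 1018 counts of Cyp2b9 and 0 of Cyp2b13, 3 counts of Cyp2b13 would have made 0.295% of the pair. That floor covers counting error only, and not shared reads that RSEM may have given to the wrong gene. Over all 15 livers Cyp2b13 made up 0% to 1.18% of the summed Cyp2b counts. In a fit with no filter the gene was not called in any of the 7 comparisons (adjusted p = 0.241 to 0.925). Of the other Cyp2b genes in the files, Cyp2b19 was listed at 0 in all 15 livers, and Cyp2b23 had 17 counts over 6 livers.

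Other targets of CAR were taken as a list of 34 genes of drug metabolism and transport, of which 32 were tested, with the Cyp2b genes left out. In ConvR mice 2 were higher and 7 lower on HF/HS than on chow, with a median log2 fold change of −0.08, beside −0.02 over all genes, of which 6.75% were called higher and 7.8% lower. Cyp1a2, a P450 of caffeine and arylamine oxidation, was at 233 ± 45.5 CPM on HF/HS and 707 ± 93.6 CPM on chow (SD, n = 3 each), a log2 fold change of −1.60 ± 0.14 (adjusted p = 4.37e-05). Cyp2c29, another P450, fell as well (−1.43 ± 0.21, adjusted p = 0.000855). The carboxylesterase gene Ces2a (−1.13 ± 0.24, adjusted p = 0.00635) and Cyp3a11, a P450 of broad drug metabolism (−1.40 ± 0.32, adjusted p = 0.0109), were the next of the 7.

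In GF mice 1 CAR target was higher and 6 were lower on HF/HS than on chow. The median was −0.41 beside −0.01 over all genes, of which 4.1% were higher and 5.45% lower. Cyp1a2 was at 464 ± 43.6 CPM on HF/HS and 979.7 ± 33.6 CPM on chow (−1.08 ± 0.14, adjusted p = 0.00126). Ephx1, the microsomal epoxide hydrolase, was at 146 ± 9.41 CPM on HF/HS and 304 ± 35.0 CPM on chow (−1.06 ± 0.22, adjusted p = 0.0114). The carboxylesterase gene Ces2c (−1.54 ± 0.37, adjusted p = 0.0216) and Cyp2c29 (−0.85 ± 0.21, adjusted p = 0.024) were lower too. Most listed targets, 23 of 32 in ConvR and 25 of 32 in GF mice, were not called.

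Between microbial states most CAR targets were not called, although on HF/HS the share called was above that of all genes. On HF/HS 2 were higher and 2 lower in ConvR than in GF livers, where 0.881% of all genes were higher and 0.735% lower. Ephx1 (1.2 ± 0.22, adjusted p = 0.0148) and the glucuronosyltransferase gene Ugt1a9 (1.47 ± 0.30, adjusted p = 0.0282) were the higher pair, and Cyp1a2 (−0.99 ± 0.14, adjusted p = 0.00533) and the P450 gene Cyp2c54 (−1.60 ± 0.31, adjusted p = 0.0204) the lower. On chow, Cyp3a11 averaged 4991 ± 245 CPM in ConvD, 2375 ± 1151 CPM in ConvR and 499 ± 228 CPM in GF livers (SD, n = 3 each). It was the 1 higher target in ConvD over GF (3.32 ± 0.35, adjusted p = 0.00182) and in ConvR over GF (2.25 ± 0.33, adjusted p = 0.00592), where the canalicular exporter gene Abcc2 was lower (−0.47 ± 0.12, adjusted p = 0.0372). In ConvD over ConvR the exporter gene Abcc3 (1.07 ± 0.22, adjusted p = 0.0165) and Ephx1 (0.86 ± 0.21, adjusted p = 0.0352) were higher. Of all genes, 2.25% were called higher and 3.34% lower in ConvD over GF, 2.55% and 2.17% in ConvR over GF, and 2.2% and 3.3% in ConvD over ConvR. List medians on chow were 0.17 for ConvD over GF, 0.42 for ConvD over ConvR and −0.15 for ConvR over GF, and on HF/HS 0.01 for ConvR over GF, beside 0.00 to −0.01 over all genes.

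The partners, cofactors and upstream regulators of CAR were called about as often as other genes. Of 26 genes, all tested, 2 were higher and 2 lower on HF/HS than on chow in ConvR mice, where 14.6% of all genes were called, and 2 higher and 1 lower in GF mice, where 9.55% were. Ppara, the fatty acid receptor PPAR alpha, was higher in both, at 354 ± 58.7 CPM on HF/HS and 199 ± 29.4 CPM on chow in ConvR mice (0.83 ± 0.16, adjusted p = 0.00353) and at 355 ± 26.5 CPM on HF/HS and 185 ± 37.3 CPM on chow in GF mice (0.94 ± 0.16, adjusted p = 0.00481). In ConvR mice Foxo1, a transcription factor of fasting and a CAR coactivator, was higher (0.59 ± 0.16, adjusted p = 0.0264). Egfr, the receptor whose signalling keeps CAR in the cytoplasm, was lower there, at 253 ± 137 CPM on HF/HS and 761 ± 216 CPM on chow (−1.59 ± 0.37, adjusted p = 0.0117), as was Nr1h4, the bile acid receptor FXR (−0.44 ± 0.13, adjusted p = 0.0313). In GF mice Ncor1, a corepressor, was higher (0.33 ± 0.08, adjusted p = 0.0208), and Ppp1r16a, a phosphatase regulatory subunit, lower (−0.45 ± 0.11, adjusted p = 0.0272). On chow, 1 of the 26 was called, Ncor1 in ConvD over GF (0.31 ± 0.08, adjusted p = 0.0372), where 5.59% of all genes were called.

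**Figure D4:**
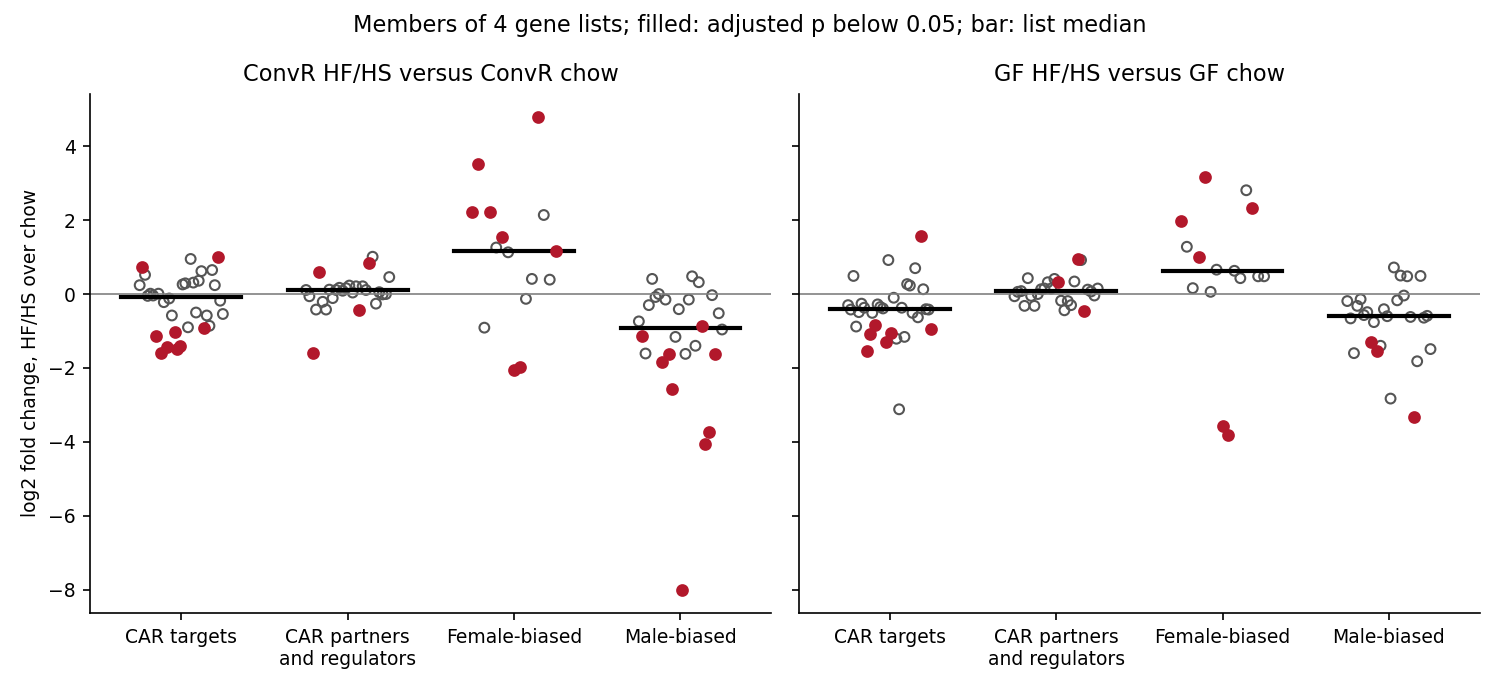
Log2 fold changes, HF/HS over chow, of the tested members of 4 gene lists in ConvR mice (left) and GF mice (right), with filled points for an adjusted p below 0.05 and a bar at the list median. The medians are −0.08 and −0.41 for CAR targets, 0.10 and 0.07 for CAR partners, 1.17 and 0.63 for female-biased genes and −0.91 and −0.60 for male-biased genes.

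Since Cyp2b9 and Cyp2b13 are female-biased genes and all mice were male, other sex-biased liver genes were described beside them. The female-biased list held 27 genes without the Cyp2b genes, of which 26 were in the files and 15 were tested, and it shared Cyp2a4 with the CAR targets. In ConvR mice 6 were higher and 2 lower on HF/HS than on chow (median 1.17), and in GF mice 4 were higher and 2 lower (median 0.63), beside medians of −0.02 in ConvR and −0.01 in GF mice over all genes. Of all genes, 6.75% were called higher and 7.8% lower in ConvR mice, and 4.1% higher and 5.45% lower in GF mice. Among those higher in ConvR mice, Cd36, a fatty acid transporter, was at 209 ± 86.1 CPM on HF/HS and 44.9 ± 12.1 CPM on chow (2.22 ± 0.30, adjusted p = 0.000495). The peroxisomal thioesterase gene Acot3 (3.52 ± 0.81, adjusted p = 0.0104) and the P450 gene Cyp2a22 (1.54 ± 0.31, adjusted p = 0.00459) were also higher. In GF mice Cyp17a1, a steroid hydroxylase, was at 21.2 ± 3.27 CPM on HF/HS and 2.36 ± 0.589 CPM on chow (3.18 ± 0.58, adjusted p = 0.007), and Nipal1, a magnesium transporter, was higher as well (2.34 ± 0.64, adjusted p = 0.0364).

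The female-biased genes were not of 1 direction. Cyp2c40, a P450, was lower on HF/HS in ConvR mice (−2.05 ± 0.39, adjusted p = 0.00373) and in GF mice, where it averaged 3.44 ± 1.27 CPM on HF/HS and 40.8 ± 19.2 CPM on chow (−3.57 ± 0.39, adjusted p = 0.000601). Cyp2c69 was lower in GF mice too (−3.82 ± 0.52, adjusted p = 0.00177). These P450 genes have close paralogs, so that their reads could be split wrongly.

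Most of the 26 male-biased genes, all tested, were not called between diets. In ConvR mice 0 were higher, 9 lower and 17 not called on HF/HS against chow (median −0.91), where 7.8% of all genes were lower. In GF mice 0 were higher, 3 lower and 23 not called (median −0.60), where 5.45% of all genes were lower. Selenbp2, a selenium-binding protein, was at 102 ± 106.5 CPM on HF/HS and 1711 ± 279.6 CPM on chow in ConvR mice (−4.06 ± 0.61, adjusted p = 0.000995), and at 238 ± 104 CPM on HF/HS and 2388 ± 577 CPM on chow in GF mice (−3.32 ± 0.58, adjusted p = 0.00613). In ConvR mice the monooxygenase gene Moxd1 (−8.0 ± 1.46, adjusted p = 0.00291) and Gstp2, a glutathione transferase (−2.57 ± 0.39, adjusted p = 0.0011), were lower. Susd4, a complement regulator, was lower there as well (−1.63 ± 0.22, adjusted p = 0.000563). In GF mice the glutathione transferase gene Gstp1 (−1.54 ± 0.32, adjusted p = 0.0118) and Cyp7b1, an oxysterol hydroxylase (−1.29 ± 0.36, adjusted p = 0.0379), completed the 3. On chow the female-biased list had 0 higher and 2 lower genes in ConvD over GF, where 5.59% of all genes were called, 1 higher and 2 lower in ConvD over ConvR, where 5.5% were, and 1 higher and 1 lower in ConvR over GF, where 4.72% were. The male-biased list had 0 called genes in ConvD over GF, 2 lower in ConvD over ConvR and 1 higher in ConvR over GF.

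At least 1 marker of each of 6 other cell types was called between diets in ConvR mice, and in GF mice only endothelial markers were. Of all genes, 6.75% were called higher and 7.8% lower in ConvR mice, and 4.1% higher and 5.45% lower in GF mice. Among the hepatocyte markers, Serpina1a was called lower on HF/HS in ConvR mice (−0.53 ± 0.14, adjusted p = 0.0185). Of 4 sinusoidal endothelial markers, 2 were called higher on HF/HS in ConvR mice and 2 in GF mice. Stab2, an endothelial scavenger receptor, was called in both (0.40 ± 0.12, adjusted p = 0.0344 in ConvR mice, and 0.48 ± 0.12, adjusted p = 0.0232 in GF mice). The endothelial sum was 159 to 188 CPM in ConvR HF/HS and 170 to 184 CPM in GF HF/HS livers, against 140 to 165 CPM in ConvR chow and 126 to 155 CPM in GF chow livers. In ConvR mice both tested neutrophil markers were lower on HF/HS, S100a8 at −3.28 ± 0.61 (adjusted p = 0.00331) and S100a9 at −3.23 ± 0.71 (adjusted p = 0.00867), and the sum of 4 neutrophil markers was 1.34 to 2.37 CPM on HF/HS, against 3.38 to 27.7 CPM on chow. Of 5 cholangiocyte markers Sox9 was lower there (−1.88 ± 0.38, adjusted p = 0.00548), with sums of 38.7 to 133 CPM on HF/HS, against 45.3 to 146 CPM on chow. The 1 tested pancreatic marker, Cela1, was lower as well (−0.87 ± 0.26, adjusted p = 0.0356), while Amy2b was listed at 0 in all 15 livers, and the pancreatic sum was 8.46 to 15.8 CPM on HF/HS, against 13.6 to 32.5 CPM on chow. The sum of 4 adipocyte markers was 9.05 to 69.6 CPM in ConvR HF/HS livers and at most 3.60 CPM in any other group. Cidec, a lipid droplet gene that fatty liver also expresses, made up nearly all of it and was the 1 member tested, while Plin1 was listed at 0 in all 15 livers. The sum of 4 intestinal markers was 108 to 158 CPM in ConvR HF/HS and 115 to 135 CPM in GF HF/HS livers, against 24.2 to 80.9 CPM on chow. Fabp2 made up nearly all of this sum, and Cdx2 was listed at 0 in all 15 livers. In ConvR mice 1 of 1 tested adipocyte marker and 1 of 2 tested intestinal markers were called higher on HF/HS, and in GF mice none of these 3. The part of these genes in the Cyp2b results was not tested.

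The genes whose log2 CPM followed each member most closely over the 15 livers were named as a description, since livers of 1 group share diet and housing. For Cyp2b9 they were Cryz (r = 0.941), Tmem167b (0.921), Slc17a4 (0.921) and Slc26a4 (0.919). Slc17a4, a phosphate transporter family gene, averaged 77.2 CPM in ConvR HF/HS, 70.9 CPM in GF HF/HS, 37.9 CPM in ConvD chow, 18.1 CPM in ConvR chow and 26.5 CPM in GF chow livers. Since these genes were chosen for their r, likeness of their group means to those of the member follows from the choice. For Cyp2b10 they were Pusl1 (0.912), Cyp1a1 (0.905), Vtcn1 (0.895) and Cyp3a59 (0.883). Cyp1a1, the P450 that marks the aryl hydrocarbon receptor, averaged 0.710 CPM in ConvR HF/HS and 0.492 CPM in GF HF/HS livers, against 1.62 CPM in ConvD chow, 1.76 CPM in ConvR chow and 1.29 CPM in GF chow livers. For Nr1i3 they were Tspyl4 (0.946), Cyb5 (0.913), Cmbl (0.911) and Fam63a (0.881).

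Correlations between members within a diet did not pass a test after adjustment. Over 9 livers on chow, Pearson's r of log2 CPM was 0.46 for Cyp2b9 with Cyp2b10, 0.424 for Cyp2b9 with Nr1i3 and 0.087 for Cyp2b10 with Nr1i3, and Spearman's rho was 0.333, 0.317 and −0.267. Over 6 livers on HF/HS r was 0.304, 0.413 and −0.449, and rho was 0.143, 0.371 and −0.714. The exact permutation p of r was 0.204 to 0.835 over these 6 relations (two-sided, adjusted p = 0.583 to 0.835), and that of rho 0.136 to 0.803. No value of the levels is given over all 15 livers, because they fall into separate sets by diet. Values changed when each liver was taken as its deviation from its group mean. For Cyp2b10 with Nr1i3, r was then 0.764 on chow (n = 9, exact permutation p = 0.0168, adjusted p = 0.101) and 0.663 on HF/HS (n = 6, exact permutation p = 0.15, adjusted p = 0.3), with the sign on HF/HS turned. These permutations exchanged livers freely across groups, although deviations from a shared group mean depend on each other, so their p can be too small. Over the deviations of all 15 livers r was 0.697 and rho 0.618. The permutation p of that r was 0.00373 with livers exchanged freely, and the exact p was 0.0566 with livers exchanged only within their own group (adjusted p = 0.107 over 3 relations). Without the 2 livers farthest from the median deviation of Cyp2b10, r was 0.517.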

How the data were processed

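Liver polyadenylated RNA of 15 mice was measured with stranded libraries, per the labels' protocols. The authors aligned reads with Bowtie2 to mm9 and estimated expression with RSEM 1.2.23, per the submitters' processing notes. The deposited expected counts are unscaled RSEM estimates per gene. RSEM had scaled the deposited TPM and FPKM to gene length and depth, library by library, and FPKM was not used. Read length is not given in the sources used here. Totals were 14737578 to 21794811 expected counts, and the counting intervals of ratios of summed counts cover counting error only.

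Expected counts were rounded and fitted with edgeR 4.0.16 in R 4.3.3: filterByExpr with a minimum count of 10, TMM scaling, a mean for each of the 5 groups, 10 residual degrees of freedom (biological coefficient of variation 0.149) and the two-sided quasi-likelihood F test. A standard error was the size of the log2 fold change divided by the square root of its F. The intervals of log2 fold changes took it with a t distribution, so they include the spread between mice. CPM were on TMM-scaled totals, with a prior count of 2 before logs. The fit was tested on simulated data. The groups came from the labels. Each mouse is 1 sample, and p-values measure the spread between these samples. Alternatives were other scalings, no filter, DESeq2 1.42.0, limma 3.58.1 on TPM, the compared groups only, a replicate block, removal of a gene length trend and libraries left out.

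The members and the 7 gene lists were chosen with earlier results of these data known. Described beside the members were, per list, up to 4 called genes in order of adjusted p, and the 4 genes with the highest r with each member, predicted genes left out. Correlations had been planned over all 15 livers and were taken within each diet after the data were seen. The permutation within groups was also added then. Cyp2b13 was left out of them and had no test with the filter. Promoters came from RefSeq (GRCm38.p6) and transcripts from GENCODE, and no coordinates on mm9 are given.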

Additional observations from a re-analysis of the deposited data

How the results depend on the processing

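Of the 4 called results, Cyp2b10 in GF HF/HS over GF chow kept its direction and call under every alternative run (−6.34 to −2.38). Cyp2b9 in ConvR HF/HS over ConvR chow was 4.14 to 9.46 and lost its call without ConvR chow 1 and 2 (7.05), as did Cyp2b10 there in 1 of 15 fits without 1 library each (−4.25 to −2.35). Cyp2b9 in GF HF/HS over GF chow lost it on log2(TPM + 1) (2.88), on log2(TPM + 0.1) (3.77), with the compared groups only (4.18), without ConvR chow 1 and 2 (4.16) and in 5 of 15 fits without 1 library (2.81 to 4.69). The cause was not tested.

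Other results gained a call. DESeq2's Wald test called Cyp2b9 (5.52) in ConvD over ConvR chow, as did log2(TPM + 0.1) (3.46), and called Cyp2b10 in ConvR over GF on HF/HS (3.14). On log2(TPM + 1), Cyp2b10 was called in ConvD over ConvR chow (1.39). Without 1 library each, Cyp2b10 in ConvD over GF chow ran from 0.89 to 2.35. Nr1i3 in ConvR over GF chow was called with DESeq2 size factors (−0.52), no scaling factors (−0.56), DESeq2 (−0.52) and TPM with either pseudocount (−0.64 and −0.65), and ran from −0.64 to −0.34 without 1 library. In ConvD over GF chow it was called by DESeq2 (−0.44) and ran from −0.57 to −0.26. In GF HF/HS over GF chow it was called with DESeq2 size factors, by DESeq2 and without ConvR chow 1 and 2 (−0.47 in each) and ran from −0.60 to −0.29. The log2 ratio of the Cyp2b sum ran from 0.91 to 2.22 in ConvD over GF chow (2.22 without GF chow 3) and from 1.01 to 2.08 in ConvD over ConvR chow (2.08 without ConvR chow 3), in fits added after the data were seen.

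Some results that were not called turned their direction. Cyp2b9 in ConvR over GF on HF/HS (−0.09) was 0.10 with no scaling factors, 0.33 on log2(TPM + 1), 0.35 on log2(TPM + 0.1) and 0.41 with the replicate block, and ran from −0.61 to 1.28 without 1 library. Nr1i3 in ConvR HF/HS over ConvR chow (−0.23) was 0.18 on TPM with either pseudocount. Without 1 library each, Cyp2b9 in ConvD over GF chow ran from −0.57 to 1.86, Cyp2b10 in ConvR over GF chow from −0.56 to 1.22 and Nr1i3 in ConvD over ConvR chow from −0.05 to 0.15 (−0.04 without ConvR chow 1 and 2). The correlation of Cyp2b10 with Nr1i3 on HF/HS (−0.449) was 0.663 on deviations from group means. For diet in GF mice the log2 ratio of the Cyp2b sum, which had no test, kept its direction at 0.28 to 2.58. The ratio turned in ConvR over GF chow (−0.80 to 0.83) and in ConvR over GF on HF/HS (−0.55 to 1.33). The cause was not tested.

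Same-numbered livers did not deviate together (correlations −0.23 to 0.246), so the numbers do not pair the mice. With the replicate block, Cyp2b9 in GF HF/HS over GF chow was 4.10 (adjusted p = 0.0545), and no other member changed its call.

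The number of genes called varied more than the members did. It was 584 for ConvR over GF chow (0 to 1655), 692 for ConvD over GF chow (11 to 1159), 681 for ConvD over ConvR chow (6 to 3785), 200 for ConvR over GF on HF/HS (16 to 791), 1802 for diet in ConvR mice (344 to 6100), 1182 for diet in GF mice (259 to 1538) and 0 for the interaction (0 to 1214). With the compared groups only, Cyp2b9 in ConvR over GF and ConvD over ConvR chow and Cyp2b10 in ConvR over GF on HF/HS did not pass the filter. With 3 counts at 0.13 to 0.206 CPM, depth limits Cyp2b13 throughout, Cyp2b9 in ConvR chow and Cyp2b10 in GF HF/HS livers.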
